A study of Mus musculus with 20 samples.

Results

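The genes of oxidative phosphorylation were followed across the cell classes of the mouse hippocampus, in wake mice and in mice under general anesthesia. Members were chosen by their symbols alone: genes beginning with Ndufa, Ndufb, Ndufc, Ndufs or Ndufv, the 4 Sdh genes, genes beginning with Uqcr, Cox4 to Cox8 or Atp5, and the protein-coding genes of the mitochondrial genome. Of 32285 annotated genes, 107 matched, of which 94 are encoded in the nucleus and 13 in the mitochondrion. By role they comprised 37 subunits and 8 assembly factors (Ndufaf genes) of complex I, 4 subunits of complex II, 8 of complex III, 20 genes of complex IV including its tissue-restricted isoforms, 17 of the ATP synthase, and the 13 mitochondrial genes. Of the 107, 98 had enough UMIs to be compared between classes. The other 9 were Cox4i2, Cox6a2, Cox6b2, Cox7a1, Cox7b2, Cox8b, Cox8c, Ndufa4l2 and Ndufaf8, with between 0 UMIs in gated nuclei (Cox8c) and 1154 (Cox7b2).

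Oxidative phosphorylation couples the oxidation of NADH and succinate to ATP synthesis. Complexes I, III and IV pump protons across the inner mitochondrial membrane, complex II feeds electrons from succinate without pumping, and the ATP synthase uses the proton gradient. Most subunits are encoded in the nucleus and imported, whereas the mitochondrial genome encodes core subunits of complexes I, III, IV and of the ATP synthase, and no subunit of complex II. Neurons are known for a high demand on this pathway and astrocytes for strong glycolysis. A nucleus holds no mitochondria, so in single-nucleus RNA-seq a mitochondrial transcript is RNA that stayed attached to the nucleus or entered the droplet free, and this transcript level is no measure of respiration.

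Hippocampus from 20 male mice aged 4.5 to 5.5 months was profiled by droplet single-nucleus RNA-seq. APP/PS1 mice, which carry the APPSwe and PS1ΔE9 transgenes of familial Alzheimer's disease as hemizygotes, and their wild-type (WT) littermates were either awake, under isoflurane (5% lowered to 1.5%) or under ketamine (150 mg/kg) with xylazine (12 mg/kg), and the anesthetized mice were taken after 3 h. The groups held 6 WT wake, 3 APP/PS1 wake, 3 WT isoflurane, 4 APP/PS1 isoflurane, 2 WT ketamine and 2 APP/PS1 ketamine mice, 1 library each, which gives 9 wake, 7 isoflurane and 4 ketamine mice. These numbers follow the sample labels, and the design text of the series and the study itself give other sizes for some wake and isoflurane groups, which bears on the genotype and interaction values. The mice are called here by the numbers in their labels, which run 1 to 4, 10 to 20 and 25 to 29, and mouse 29 is the only wake mouse of the last run. Fits with runs of mouse numbers as a block further cut 10 to 20 into 10 to 13, 14 to 17 and 18 to 20.

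Promoter stretches of 8 nuclear members are shown because the genes of this pathway lie on many chromosomes yet are known to share activator sites in their promoters. RefSeq (GRCm38.p6) gave a promoter, from 250 bases before to 50 bases after the start site, for 75 of the 94 nuclear members. Each line reads 5′ to 3′ on the strand of the gene, with 10 bases on either side of a match, and the capitals mark letters from the core of the consensus of nuclear respiratory factor 1 (NRF1).
Atp5g2 (chr15:102671071-102671097, minus strand): ctccggccgcGCATGCGcagagccttc
Atp5k (chr5:108434431-108434457, minus strand): tcactgcggcGCATGCGcctttctggc
Atp5l (chr9:44920966-44920992, minus strand): aaccaataacGCATGCGcatttccccc
Cox6a1 (chr5:115349102-115349128, minus strand): ggaacggggcGCATGCGcgctctcgct
Ndufa11 (chr17:56717694-56717720, plus strand): tgcactgcgcGCATGCGcgcacgcctt
Ndufa6 (chr15:82354358-82354384, minus strand): ccgcggtagaGCATGCGcattgcagag
Ndufaf4 (chr4:24897962-24897988, plus strand): agatgtctgcGCATGCGcctgtgcgga
Sdhb (chr4:140961207-140961233, plus strand): agcccagtggGCATGCGccctacgggc

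The match starts between 40 bases (Atp5g2) and 240 bases (Atp5l) before the start site in these 8 promoters. The letters GCATGCG, searched without mismatch on both strands, occurred in 12 of the 75 member promoters (16.0%), of which the 8 with the match and its flanks ahead of the start site are printed, and in 984 of all 27025 promoters of this length (3.64%). CCGGAAG, a core bound by ETS factors such as the GA-binding protein, was in 18 member promoters (24.0%) and in 9.12% of all. AAGATGG, from the YY1 motif, was in 10 (13.3%) against 6.48%, and TATAAA was in 8 (10.7%) against 14.2%. Each was counted without regard to the others. These are letter matches, not measured binding.

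The files held 160777 nuclei with 4743 to 10877 per mouse and 9243992 to 25394891 UMIs per mouse, and the median nucleus held 1235 to 3169 UMIs. A nucleus was put in a class when it held at least 2 different gate markers of that class and at least 2 times as many as of any other, which placed 98795 nuclei (61.4%) in 12 classes. Class names stand for these marker-gated nuclei, so that "astrocytes" means astrocyte-like nuclei. Of 4 markers that the gate did not use, 4 were highest in their own class for GABAergic neurons, astrocytes, oligodendrocytes and microglia, 3 for CA1, CA3 and oligodendrocyte precursor cells (OPCs), and only 2 for dentate gyrus (DG) granule neurons and for subicular/cortical excitatory neurons. At the gate's minimum of 2 markers stood 74.2% of CA1 nuclei and 59% of subicular/cortical nuclei, against 10.4 to 43.3% in the other classes tested below. No pair of libraries shared more than 35 barcodes. Tests used UMI counts summed per mouse and class where at least 50 nuclei were present, which left 9 classes, all with 20 mice except microglia with 17. The libraries of mice 1 to 4 stood apart: mitochondrial genes made up 0.939 to 1.78% of their UMIs against 0.0353 to 0.336% in the other 16, and nuclear members 0.546 to 0.804% against 0.177 to 0.395%. These 4 mice belong to 4 different groups. Prnp, whose promoter drives the transgenes of this line, ranged from 64.9 to 429 CPM (counts scaled to the total UMIs of the library) in 9 libraries labelled APP/PS1 (median 208) and from 51.0 to 209 in 11 labelled WT (median 81.6). The libraries labelled mouse 11 and mouse 17 (APP/PS1) lay at 64.9 and 77.3 CPM and that labelled mouse 14 (WT) at 209 CPM, so genotype results are also given without them. Mouse 20 (APP/PS1), at 102 CPM, also lay below WT mice 1, 3 and 19 (110, 156 and 121 CPM) and was kept in those fits.

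Over nuclei of all depths, nuclear members took the largest share of the RNA in astrocytes, oligodendrocytes and microglia and the smallest in CA3 neurons. The share of all UMIs of a class sum averaged 0.482% ± 0.229 (SD, n = 20 mice) in astrocytes, 0.449% ± 0.293 in oligodendrocytes and 0.487% ± 0.389 (n = 17) in microglia. It averaged 0.342% ± 0.162 in GABAergic neurons, 0.326% ± 0.179 in OPCs, 0.318% ± 0.145 in subicular/cortical neurons, 0.303% ± 0.147 in DG granule neurons, 0.267% ± 0.125 in CA1 and 0.244% ± 0.105 in CA3. Within a mouse the order was steadier than these spreads. CA3 had the lowest share of the 9 classes in 19 of 20 mice, astrocytes the highest in 15 and microglia in 5. Astrocytes lay above CA3 in 20 of 20 mice, with CA3 at a median of 0.517 times the astrocyte share (0.423 to 0.586). Neighbours in the order were less clear: astrocytes exceeded oligodendrocytes in 16 of 20 mice and microglia in 12 of 17. The microglia mean was carried by mice 1 to 4, at 1.14%, against 0.286% in the other 13 mice with microglia sums. In the 16 mice other than 1 to 4, astrocytes averaged 0.382%, oligodendrocytes 0.316% and GABAergic neurons 0.269%.

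**Figure D1:**
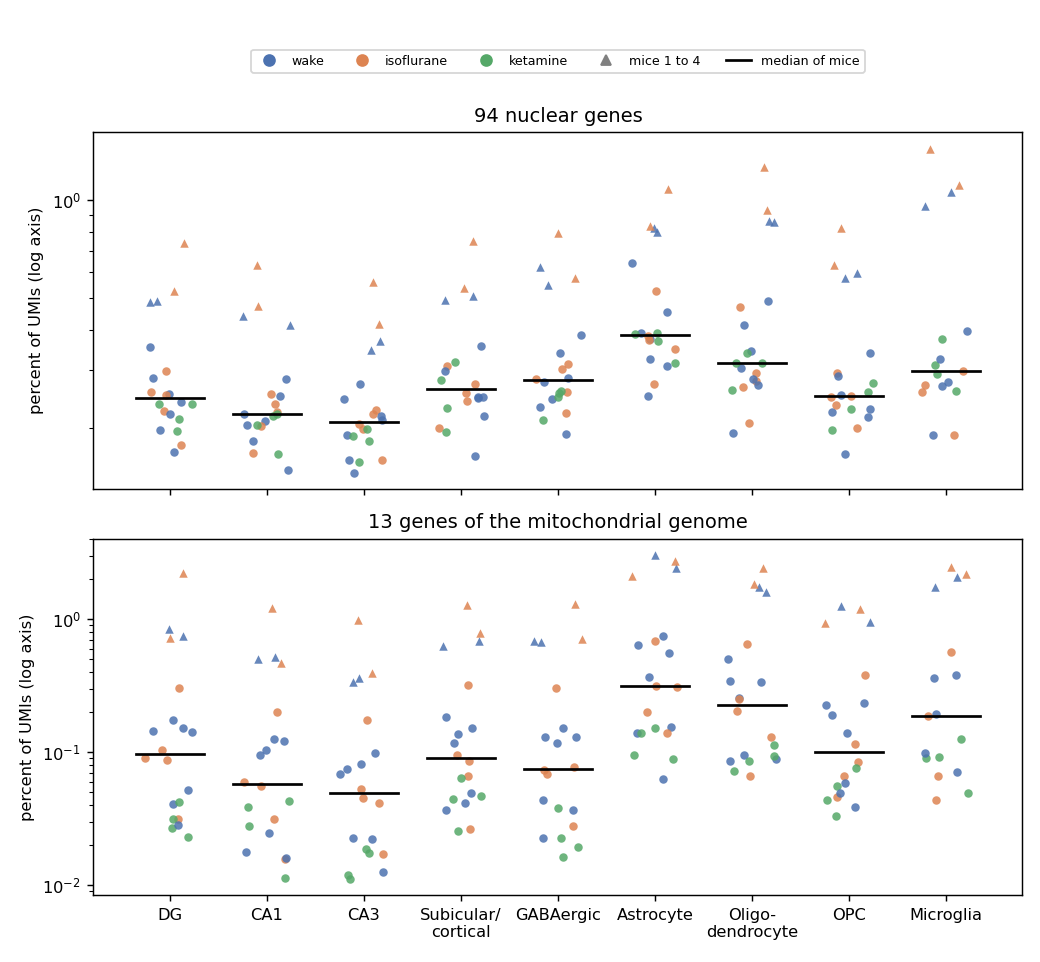
Share of all UMIs taken by the 94 nuclear members and by the 13 mitochondrial genes in each mouse and class (log axes, percent), 1 point per mouse, with mice 1 to 4 marked apart. In both panels the points of astrocytes and oligodendrocytes sit above those of CA1 and CA3, and mice 1 to 4 lie above the other mice of the same class.

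The order of shares was not the order of transcripts per nucleus. Nuclei of CA3 averaged 4102 ± 1187 UMIs over mice and those of oligodendrocytes 1020 ± 208, and nuclear members gave 10.3 ± 6.08 UMIs per CA3 nucleus against 6.38 ± 4.77 per astrocyte nucleus and 4.87 ± 3.86 per oligodendrocyte nucleus. CA3 had the most UMIs of nuclear members per nucleus of the 9 classes in 15 of 20 mice. CA3 nuclei thus held more transcripts of nuclear members but gave them a smaller fraction of their total. Mitochondrial UMIs per nucleus did not follow this: CA3 lay below astrocytes in 20 of 20 mice and astrocytes were the highest class in 16. Nuclei of 1000 to 2000 UMIs, chosen after the depths were seen, gave mean shares of 0.477% in astrocytes (n = 20 sums with 50 such nuclei), 0.430% in oligodendrocytes (n = 19), 0.366% in DG granule neurons (n = 19), 0.310% in CA1 (n = 8) and 0.270% in CA3 (n = 11). These means rest on different mice, and their medians ran from 0.346% in astrocytes through 0.305% in CA1, 0.303% in oligodendrocytes and 0.284% in DG granule neurons to 0.270% in CA3. Within a mouse and in this window, astrocytes lay above CA3 in 11 of 11 mice and above oligodendrocytes in 16 of 19. Oligodendrocytes lay below CA1 in 6 of 7 mice and below CA3 in 7 of 10, so their place above these classes did not hold in the window. CA3 was not the lowest class there either, since it lay above OPCs in 7 of 9 mice. Depth was not equal within the window: nuclei averaged 1297 UMIs in oligodendrocytes, 1583 in CA1 and 1589 in CA3. The medians of GABAergic neurons (0.313%, n = 14), subicular/cortical neurons (0.312%, n = 16) and OPCs (0.267%, n = 15) completed the window, in which microglia had only 3 sums.

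Member by member, astrocytes, oligodendrocytes and microglia stood above the mean of the other classes and the pyramidal classes below it. In astrocytes 77 of 85 nuclear members tested were higher and 4 lower (median log2 fold change 0.54), where 39.7% of all 12836 genes were higher and 40.2% lower. In oligodendrocytes 70 were higher and 7 lower (median 0.53, all genes 36.5% and 39.3%), and in microglia 47 and 9 (median 0.33, all genes 23.3% and 38.3%). CA3 had 5 higher and 63 lower (median −0.47, all genes 36.8% and 34.8%) and CA1 had 3 and 64 (median −0.38, all genes 29.2% and 33.3%). DG granule neurons had 9 higher and 31 lower (39.8% and 32.1%), subicular/cortical neurons 5 and 29 (30.5% and 22%), GABAergic neurons 12 and 25 (31.3% and 31.5%), and OPCs 0 and 24 (18.4% and 16%). The count in DG granule neurons changed in fits without 1 mouse, which reused the dispersion trend of the full fit. They gave 30 (mouse 13) to 53 (mouse 11) lower and 5 to 9 higher, with 36 and 40 lower without mouse 3 and mouse 28, and 42 to 53 in the other 17 fits. The lower members of microglia moved from 9 to between 4 and 9, and the higher ones of CA3 from 5 to between 2 and 4. Lower members ran from 20 to 30 in GABAergic neurons, 17 to 31 in OPCs and 27 to 42 in subicular/cortical neurons. The parts of the missing mouse and of the reused trend in these changes were not tested apart. The median over all genes was between −0.06 and 0.03 in these classes, apart from microglia at −0.21. The test was edgeR's quasi-likelihood test with the mouse as a block, each class against the mean of the other 8, at a Benjamini-Hochberg adjusted p under 0.05 over all genes. Cytosolic ribosomal protein genes followed a like split in 5 of these classes, with 74 of 78 higher in astrocytes, 77 in oligodendrocytes and 71 in microglia, and 75 lower in both CA1 and CA3, so the direction there was shared by another set of housekeeping genes. In GABAergic neurons the sets were less alike, with 0 ribosomal genes higher and 68 lower (median −0.45).

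Without mice 1 to 4, microglia had 7 nuclear members higher and 4 lower of 84 (median −0.004). Astrocytes then had 77 higher and 3 lower, oligodendrocytes 63 and 4, CA3 2 and 61, and CA1 2 and 40. Of all genes in that fit, 21.5% were higher and 26.2% lower in microglia, 42% and 36.4% in astrocytes, 38.7% and 34.8% in oligodendrocytes, 31% and 37% in CA3, and 25.6% and 31.5% in CA1. In nuclei of 1000 to 2000 UMIs, of 78 tested, astrocytes had 54 higher and 1 lower, oligodendrocytes 18 and 2, microglia 1 and 0, CA1 1 and 4, and CA3 0 and 5. All genes there were higher in 39.2% and lower in 28.5% of tests in astrocytes, 33.3% and 26% in oligodendrocytes, 16.7% and 20.2% in microglia, 15.3% and 13.7% in CA1, and 19.6% and 13.5% in CA3. With DESeq2 and its size factors, which change the test and the scaling together, the split in DG granule neurons moved to 2 higher and 66 lower and that in microglia to 68 higher and 2 lower, while the median of all genes moved from 0.03 to −0.12 in DG granule neurons, from −0.21 to 0.01 in microglia, from −0.001 to −0.15 in CA3 and from −0.02 to 0.13 in astrocytes.

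**Figure D2:**
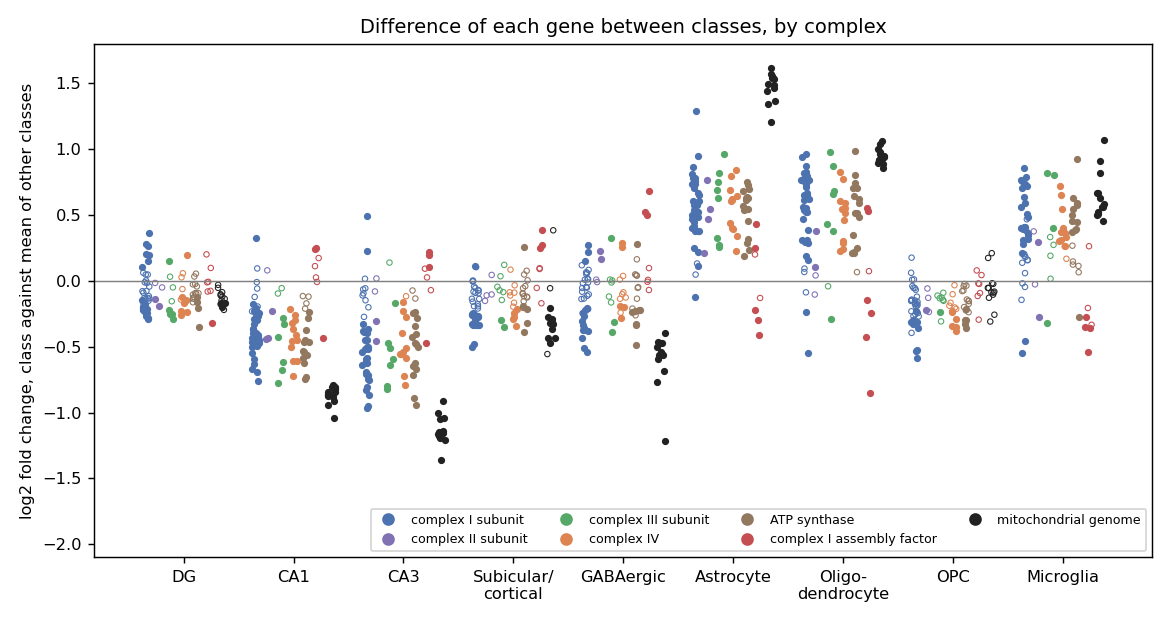
Difference of each tested member between a class and the mean of the other classes (log2 fold change), 1 point per gene, by complex. Astrocyte and oligodendrocyte points lie mostly above 0 and CA1 and CA3 points mostly below 0 in each complex, and the mitochondrial genes reach farthest, between 1.21 and 1.62 in astrocytes.

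Of 37 subunits of complex I, the NADH dehydrogenase, 34 were higher in astrocytes and 32 in oligodendrocytes, and 27 were lower in CA3 and 29 in CA1. The widest gap of a nuclear member was Ndufc2, a small membrane-arm subunit (chromosome 7, 97400003 to 97407802, plus strand, mm10), which was named after its values were seen. It lay at 37.7 to 193 CPM in astrocytes (median 75.8, n = 20) and at 4.84 to 80.2 in CA3 (median 18.7), and its astrocyte fold change was 1.29 ± 0.07 (log2, SE, adjusted p = 1.4e-43, edgeR). Ndufs1, the largest iron-sulfur subunit, was higher in astrocytes by 0.38 and lower in microglia by 0.55 on the log2 scale, and its values of −0.06 in both CA1 and CA3 did not pass the test. Ndufv1, which binds NADH, was higher in oligodendrocytes (0.55) and astrocytes (0.50) and lower in CA3 (−0.50).

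Some complex I genes went the other way. Ndufa10 was higher in CA3 (0.50) and CA1 (0.33) and lower in microglia (−0.45), with medians of 95.3 CPM in CA3 and 61.9 in astrocytes. Ndufs4, a subunit whose loss causes Leigh syndrome, was lower in oligodendrocytes (−0.55, median 79.7 CPM) and higher in DG granule neurons (0.26, median 128 CPM). Both were named after their values were seen, as were the assembly factors below. Ndufaf genes help build complex I and are not part of it, and of 7 tested 2 were higher in astrocytes and 3 were lower, near the 39.7% and 40.2% of all genes. In GABAergic neurons Ndufaf5, a hydroxylase of Ndufs7, was higher by 0.68, Ndufaf6 by 0.53 and Ndufaf7, a methyltransferase, by 0.50, while in oligodendrocytes they lay at −0.43, −0.85 and −0.14. Ndufaf6 had a median of 37.2 CPM in GABAergic neurons and 15.1 in oligodendrocytes (n = 20 each).

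Complex II, succinate dehydrogenase, was higher in astrocytes in all 4 subunits. Its flavoprotein Sdha was higher in astrocytes (0.47) and GABAergic neurons (0.23) and lower in microglia (−0.28), and Sdhb, the iron-sulfur subunit, was higher in astrocytes (0.21) and GABAergic neurons (0.17). In oligodendrocytes only 2 of the 4 subunits were higher, with Sdhb at −0.10 and not passing the test. Of the 8 subunits of complex III, 8 were higher in astrocytes and 7 lower in CA3. Uqcrfs1, the Rieske iron-sulfur protein, was higher by 0.96 in astrocytes and by 0.66 in oligodendrocytes and lower in CA1 (−0.67) and CA3 (−0.59). Uqcrc1, a core subunit of the same complex, differed from it in oligodendrocytes, where it was lower (−0.29), and it was higher in GABAergic neurons (0.32) and astrocytes (0.25) and lower in microglia (−0.32).

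Complex IV, cytochrome c oxidase, was uniform in direction: all 12 genes tested were higher in astrocytes and in oligodendrocytes, all 12 were lower in CA1 and 11 in CA3. Cox4i1, the common isoform of subunit 4, ran at 61.1 to 566 CPM in astrocytes (median 150) and at 30.9 to 247 in CA3 (median 65.0), with fold changes of 0.80 and −0.55. Cox5a, which sits beside it, differed less (0.40 in astrocytes, −0.16 in CA3) and was also higher in GABAergic neurons (0.26). Cox6c was higher in astrocytes (0.64), oligodendrocytes (0.61) and microglia (0.37). Ndufa4, long counted with complex I and now assigned to complex IV, was higher in oligodendrocytes (0.77), astrocytes (0.69) and microglia (0.54) and lower in CA3 (−0.72).

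Of the 17 ATP synthase genes, all 17 were higher in astrocytes and 16 in oligodendrocytes, and 15 were lower in CA3. The 3 genes that encode the same mature subunit c, Atp5g1, Atp5g2 and Atp5g3, did not move alike. Atp5g3 (chromosome 2, 73908447 to 73911326) was lower in CA3 by 0.94 and in CA1 by 0.73 on the log2 scale, whereas Atp5g1 was lower by 0.24 and 0.46. In subicular/cortical neurons Atp5g3 was higher (0.26) and Atp5g1 and Atp5g2 lay at 0.08 and −0.12, which did not pass the test. The difference between the 3 genes was not itself tested. Atp5b and Atp5a1 also spread: Atp5b was higher in astrocytes (0.70) and lower in CA1 (−0.44) and CA3 (−0.40), while Atp5a1 was higher in astrocytes (0.46) and GABAergic neurons (0.28), lower in microglia (−0.27), and at −0.07 in CA3, without passing the test.

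Members with long genes departed from the rest in most classes. Across the 85 nuclear members the rank correlation of gene length with the class difference was 0.59 in CA3, 0.57 in CA1 and 0.50 in GABAergic neurons, and −0.60 in oligodendrocytes, −0.57 in microglia and −0.44 in astrocytes. The same correlation over 12726 other genes was 0.14 in CA3 and −0.22 in oligodendrocytes. For members it was weaker in DG granule neurons (0.31), subicular/cortical neurons (0.19) and OPCs (0.09), where other genes had 0.06, 0.17 and 0.17. These correlations are across genes of the same libraries, which are not independent, and are given as descriptions. The 13 tested members of at least 20000 bases, among them Ndufs1, Ndufa10, Ndufs4, Sdha and Ndufaf6, had a median of −0.06 in CA3 and −0.14 in microglia, and the 72 shorter ones −0.50 and 0.37. Intronic reads were counted, which gives long genes more places to be primed, and the part of this in the differences between members was not tested.

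**Figure D3:**
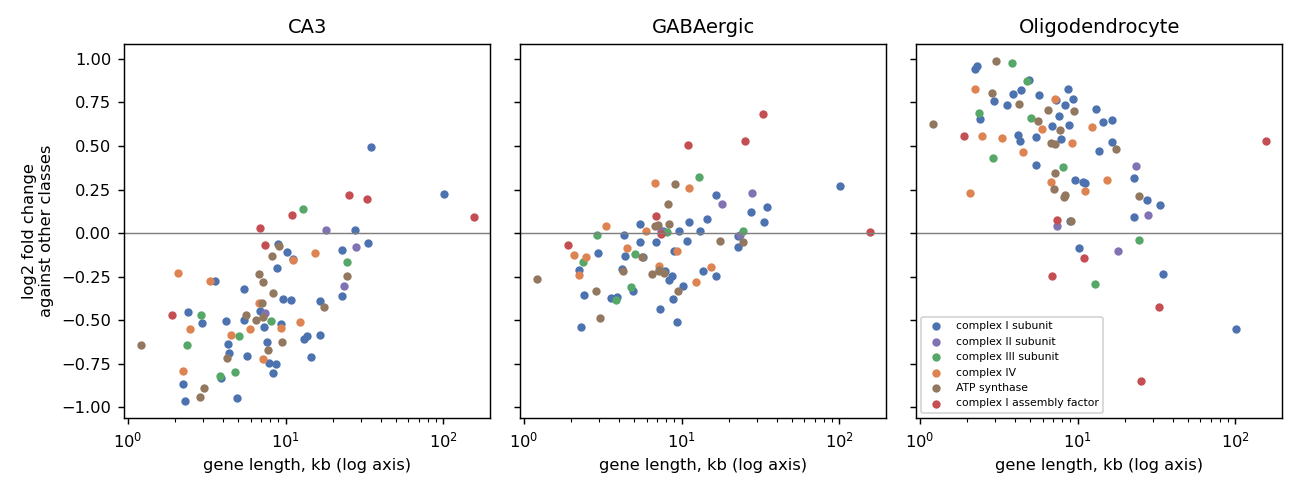
Gene length in kb (log axis) against the difference of each nuclear member in CA3, GABAergic neurons and oligodendrocytes (log2 fold change against the other classes), 1 point per gene. Long members lie nearer to 0 than short ones in CA3, where the short ones are mostly below 0, and in oligodendrocytes, where they are mostly above 0.

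As shares of the RNA, the mitochondrial genes split the classes more widely than the nuclear members. All 13 were higher in astrocytes (median log2 fold change 1.49), in oligodendrocytes (0.94) and in microglia (0.58), and all 13 were lower in CA3 (−1.16) and CA1 (−0.86). In GABAergic neurons 12 were lower, in subicular/cortical neurons 10, in DG granule neurons 3, and in OPCs 0 passed the test in either direction. In DG granule neurons leaving out 1 mouse, with the dispersion trend reused, gave 2 (mouse 13) to 9 lower, and leaving out mice 1 to 4 gave 9 of 11. The 5 smallest adjusted p values between classes among higher members were all in astrocytes. They belonged to mt-Co1 (1.57, adjusted p = 8.65e-58), mt-Co3 (1.53), mt-Atp6 (1.49), mt-Co2 (1.49) and mt-Nd4 (1.54), and the 5 among lower members were all in CA3, with mt-Co3 (−1.14, adjusted p = 1.47e-30), mt-Co1 (−1.18), mt-Atp6 (−1.16), mt-Co2 (−1.16) and mt-Cytb (−1.19). The mitochondrial share over 20 mice had a median of 0.313% in astrocytes (0.0624 to 3.04%), 0.228% in oligodendrocytes, 0.0574% in CA1 and 0.0490% in CA3 (0.0111 to 0.983%). Astrocytes were the highest of the 9 classes in 17 mice, and CA3 was the lowest in 17 and CA1 in 3. Counted per nucleus in the 16 mice other than 1 to 4, only astrocytes stood apart, with a mean of 3.32 mitochondrial UMIs against 1.82 (CA3) to 2.21 (subicular/cortical neurons) in the other 8 classes. CA1 exceeded oligodendrocytes in 8 of 20 mice and microglia in 8 of 17 by that measure, so between these classes the gap in shares went with the total UMIs of a nucleus. In nuclei of 1000 to 2000 UMIs, 11 of 11 mitochondrial genes tested were higher in astrocytes, 4 in oligodendrocytes and 0 in microglia, and 5 were lower in CA3.

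The makeup of the mitochondrial RNA, pooled over mice and not tested, was set mostly by mice 1 to 4, which held 73.4% of the mitochondrial UMIs of the 9 classes. mt-Co3, which encodes a subunit of complex IV, gave 21.7 to 22.7% of these UMIs in the 9 classes, mt-Co1 15.8 to 18.3%, mt-Atp6 15.0 to 16.0% and mt-Cytb, the complex III subunit, 10.5 to 11.9%. Single mice differed more than classes: over the 20 mice mt-Co3 ran from 16.9 to 25.3%, mt-Co1 from 13.4 to 28.1% and mt-Cytb from 4.27 to 12.3%. mt-Nd1 ranged from 5.35% in astrocytes to 7.38% in GABAergic neurons. mt-Nd6, the only one of them encoded on the light strand (chromosome M, 13552 to 14070, minus strand), gave 0.0729 to 0.225% over classes and 0.0690 to 1.55% over mice.

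Isoforms that are known from other tissues appeared in the vascular classes, which had too few nuclei per mouse for a test and were pooled over mice. Intervals below are exact 95% Poisson intervals on pooled UMIs and cover counting error only. Endothelial nuclei (483) gave 1.05% of UMIs to nuclear members and mural nuclei (240) 0.827%, and 2.89% and 1.14% to mitochondrial genes. Mice supplied unlike numbers of these nuclei, with 170 of the endothelial ones from 1 mouse. Within a mouse, endothelial nuclei had the higher nuclear share in 16 and the higher mitochondrial share in 15 of 19 mice, and medians over mice were 0.623% and 0.424% for nuclear members and 1.21% and 0.268% for mitochondrial genes. Ndufa4l2, a hypoxia-inducible relative of Ndufa4 (chromosome 10, 127514967 to 127517154), stood at 76.7 CPM in endothelial nuclei (57.5 to 100.3, 53 UMIs from 11 mice) and 77.6 CPM in mural nuclei (44.4 to 126, 16 UMIs from 9 mice). In astrocytes it was at 1.52 CPM (1.04 to 2.13), and in microglia it had 0 UMIs, where 3 UMIs would be 0.990 CPM. Cox4i2, the oxygen-responsive isoform of subunit 4, stood at 23.2 CPM in endothelial nuclei (13.2 to 37.6) and 29.1 in mural nuclei (10.7 to 63.4, 6 UMIs), against 0.32 to 1.75 CPM in the 9 tested classes. Cox4i1 exceeded it in each of them, with 489 CPM in endothelial and 490 in mural nuclei. Endothelial nuclei also held mural markers, with the gate marker Rgs5 at 1397 CPM. Of the mural check markers, Ebf1 stood there at 1248 CPM against 1896 in mural nuclei, and Atp13a5 at 230 against 2420. The part of mural RNA in the endothelial values of Ndufa4l2 and Cox4i2 was not tested.

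Cox6b2, known from testis, was found in astrocytes at 12.0 CPM (10.6 to 13.5, 261 UMIs from 20 of 20 mice) and in the other 8 tested classes at 0.40 to 2.93 CPM. Mural nuclei had 48.5 CPM from only 10 UMIs (23.3 to 89.2). Its partner isoform Cox6b1 was at 55.8 CPM in astrocytes and 19.4 in CA3. Cox6a2, the heart and muscle isoform, stood at 4.96 CPM in GABAergic neurons (3.84 to 6.31, 66 UMIs from 12 mice), above the 0.14 to 2.31 CPM of the other 8 tested classes, while Cox6a1 was at 55.8 CPM in GABAergic neurons. Cox7a1 and Cox8b, also muscle isoforms, had 102 and 23 UMIs in all gated nuclei, against 69.5 CPM of Cox7a2 and 195 CPM of Cox8a in astrocytes. In fibroblast-like nuclei (1067 in all, 2 to 424 per mouse, 90.4% of them at the marker minimum of the gate), Atp5g3 reached 518 CPM, above Atp5g2 at 272 and Atp5g1 at 176, and ribosomal protein genes made up 4.62% of UMIs there.

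The pathways that feed the chain or build it were set beside the members, and their counts stand against the shares of all genes, 39.7% higher and 40.2% lower in astrocytes, 31.3% and 31.5% in GABAergic neurons, and 23.3% and 38.3% in microglia. Of 16 genes of the tricarboxylic acid cycle and pyruvate dehydrogenase, 11 were higher in astrocytes and 11 in GABAergic neurons, and 10 were lower in microglia. Of 9 mitochondrial carriers and cytochrome c genes, 9 were higher in astrocytes, and of 18 genes of glycolysis and glucose uptake 14. Of 24 assembly factors on a wider list, 12 were higher and 6 lower in astrocytes, and 12 higher and 2 lower in GABAergic neurons. Of 13 regulators of mitochondrial gene expression, 6 were higher and 4 lower in astrocytes and 4 and 5 in GABAergic neurons, near the shares of all genes. Ppargc1a, which encodes the coactivator PGC-1α, was higher in astrocytes by 1.76 (adjusted p = 5.1e-72) and in GABAergic neurons by 0.89, and lower in oligodendrocytes (−1.91) and microglia (−1.29). Its relative Ppargc1b went the other way in astrocytes (−2.12), was lower in oligodendrocytes (−1.60) and was higher in DG granule neurons (1.04) and CA1 (0.94). Nrf1, whose product is the factor of the capital letters printed above, was higher in astrocytes (0.88) and lower in GABAergic neurons (−0.62).

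Few members passed the test under isoflurane. Against wake, over both genotypes and 9 classes, 1 of 853 tests of members was higher and 0 were lower, where 1.94% of all 98167 tests were higher and 1.78% lower. At an unadjusted p under 0.05 there were 3.52% of member tests and 16.7% of all tests. The fit held the 6 groups and a term for mice 1 to 4, and p-values measure the spread between mice. The 1 call was Ndufaf6 in CA1 neurons (chromosome 4, 11051045 to 11076205, minus strand), a factor needed early in the assembly of complex I. It ran from 27.7 to 46.1 CPM in 7 isoflurane mice (median 33.5) and from 11.4 to 25.3 CPM in 9 wake mice (median 19.4), with a log2 fold change of 0.78 ± 0.21 (SE, adjusted p = 0.0417, edgeR). The groups did not overlap. The 4 ketamine mice lay at 48.1, 15.7, 23.5 and 33.3 CPM, 2 of them within the wake range and 2 above it. Leaving out 1 mouse at a time gave adjusted p values from 0.0310 to 0.105, and without mice 1 to 4 it was 0.188, with fold changes from 0.72 to 0.94.

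The medians of the nuclear members under isoflurane were between −0.07 (astrocytes) and 0.12 (microglia) on the log2 scale, and those of the mitochondrial genes between −0.34 (astrocytes) and 0.24 (CA3). Summed shares overlapped widely. In the 16 mice without mice 1 to 4, nuclear members took 0.2504 to 0.643% of astrocyte UMIs in 7 wake mice (median 0.375%) and 0.273 to 0.525% in 5 isoflurane mice (median 0.371%). In CA1 they took 0.149 to 0.283% in wake (median 0.210%) and 0.167 to 0.254% under isoflurane (median 0.223%). Ndufs1 in CA1 averaged 85.9 ± 10.1 CPM (SD, n = 9) in wake and 84.1 ± 9.24 (n = 7) under isoflurane. Among genes near the chain, 2 regulator calls were of Gabpb1, a subunit of the GA-binding protein, which was higher in DG granule neurons (0.49, adjusted p = 0.0209) and subicular/cortical neurons (0.67, adjusted p = 0.0237), and ribosomal protein genes had 2 of 687 tests higher. The assembly factor Nubpl was higher in oligodendrocytes (0.51), Suclg2 of the tricarboxylic acid cycle was higher in CA3 (0.86), glycolytic Pfkm was lower in astrocytes (−0.55), and carriers had 0 of 78 called.

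Some mitochondrial genes were lower under ketamine than in wake mice in 6 of 9 classes, which did not hold with runs of mouse numbers as a block. Of 853 member tests 26 were lower, 21 of them mitochondrial, and 2 were higher, where 2.55% of all tests were lower and 2.53% higher. In CA1, OPCs and microglia no mitochondrial gene passed, with smallest adjusted p values of 0.102, 0.0766 and 0.129 (edgeR). mt-Cytb was lower in 6 classes, mt-Nd4 in 5, mt-Nd1 in 4, mt-Co1 in 3, and mt-Nd2, mt-Atp6 and mt-Co3 in DG granule neurons alone. In DG granule neurons mt-Cytb stood at 10.7, 23.2, 19.6 and 22.4 CPM in the 4 ketamine mice and at 19.0 to 1016 CPM in 9 wake mice (median 134), with a log2 fold change of −2.46 ± 0.58 (SE, adjusted p = 0.0115). mt-Nd1 stood there at 10.4, 14.9, 10.4 and 14.7 CPM against 13.9 to 538 in wake (−2.16, adjusted p = 0.0119), mt-Nd2 was lower by 2.07 on the log2 scale (adjusted p = 0.0125), and in astrocytes mt-Cytb was lower by 2.54 (adjusted p = 0.0129).

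The wake mice that overlapped the ketamine range in mt-Cytb and mt-Nd1 of DG granule neurons came down to 1 animal, mouse 29, the wake mouse numbered in the same run as the ketamine mice. Its mt-Cytb was 19.0 CPM, and the next lowest wake mouse had 37.9 CPM. Mouse 29 lay within the ketamine range of the mitochondrial share in 8 of 9 classes and of the nuclear share in 8 of 9. Other wake mice overlapped too: of the 8 besides mouse 29, 8 lay above the ketamine range of the mitochondrial share in CA3, 7 in DG granule neurons, GABAergic neurons and astrocytes, and 6 in CA1, subicular/cortical neurons, oligodendrocytes and OPCs. In astrocytes mouse 29 lay below both, with 0.0624% mitochondrial UMIs against 0.0891 to 0.152% under ketamine, and its mt-Cytb there was 39.3 CPM against 47.9, 79.1, 51.6 and 93.3 CPM. With runs of mouse numbers as a block, an alternative added after these values were seen, 0 members were called, with a smallest adjusted p of 0.566 over the mitochondrial genes, and 33 of 98167 tests of all genes were called, 26 of them also called in the same direction without the block. The median of 105 mitochondrial fold changes moved from −1.50 to −0.03, and 53 instead of 96 lay below 0. That block rests on a single wake mouse, so state and run of numbers can barely be told apart. Leaving out 1 ketamine mouse gave 0 (mouse 27), 2 (mouse 25), 8 (mouse 26) or 10 (mouse 28) lower members, and leaving out mouse 29 gave 45. The calls over all genes moved with them, from 5.09% of tests to 0.884, 1.69, 2.37 and 2.88%, and to 6.72% without mouse 29.

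**Figure D4:**
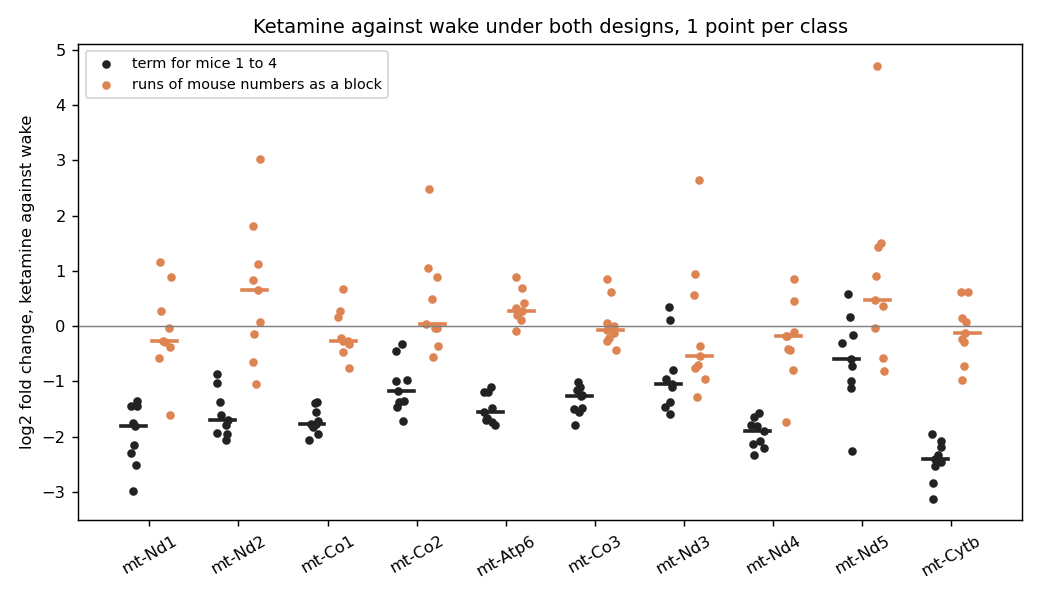
Difference between ketamine and wake mice for the 10 mitochondrial genes tested in all 9 classes (log2 fold change), 1 point per class and a bar at the median, with the term for mice 1 to 4 (black) and with runs of mouse numbers as a block (orange). The black points lie mostly between −1 and −3, and the orange ones lie on both sides of 0.

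mt-Nd6 went against the other mitochondrial genes. In DG granule neurons it was higher under ketamine by 1.28 ± 0.40 (log2, SE, adjusted p = 0.0437), from low values of 1.84 to 5.08 CPM in ketamine mice and 0.832 to 6.69 CPM in wake mice, which overlapped. Relative to the other 12 mitochondrial genes over 9 classes, mt-Nd6 gave 15.7, 8.93, 9.92 and 11.4 UMIs per 1000 in mice 25 to 28 and 9.91 in wake mouse 29, and 0.690 to 5.43 in the other 15 mice. The 5 mice of this run thus had more mt-Nd6 for their mitochondrial RNA than each of the other mice, whatever their state. With runs of mouse numbers as a block, mt-Nd6 in DG granule neurons stayed at 1.15 (log2) without being called. Its median over the 4 classes where it was tested moved from 1.13 to 0.17.

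**Figure D5:**
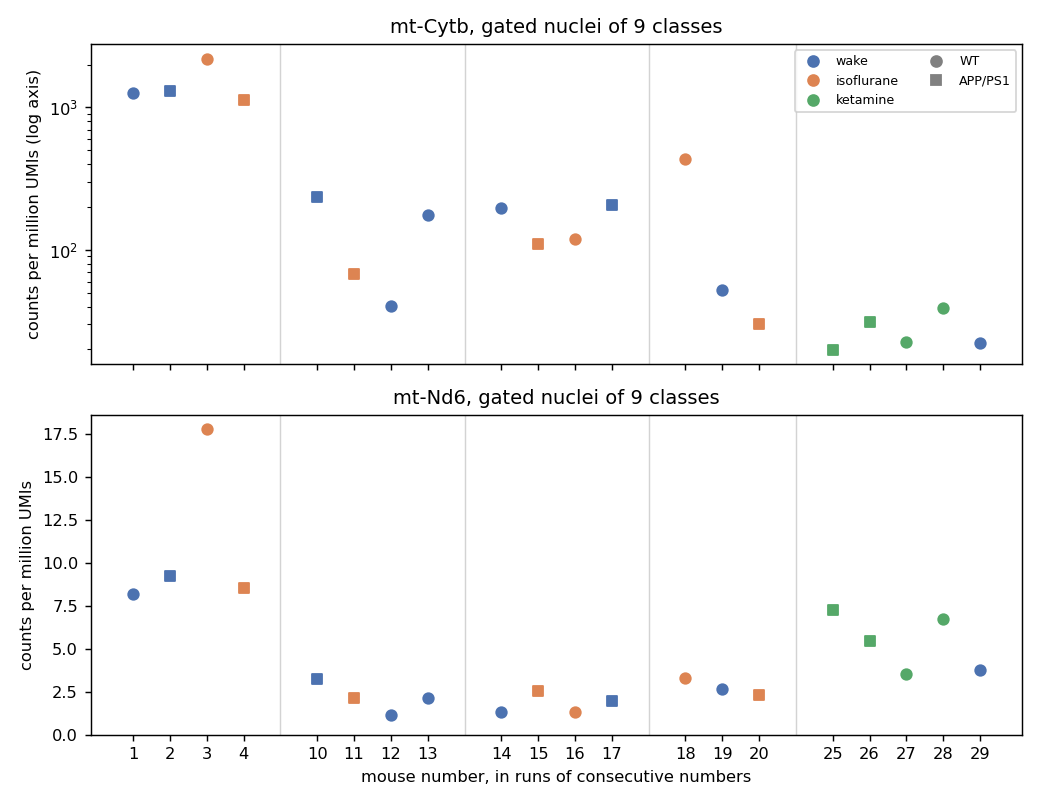
mt-Cytb and mt-Nd6 in the gated nuclei of 9 classes by mouse number (CPM, log axis for mt-Cytb), coloured by state, with circles for WT and squares for APP/PS1. Mice 1 to 4 are the highest for mt-Cytb, and wake mouse 29 lies among ketamine mice 25 to 28.

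Nuclear members under ketamine were called rarely, with 5 of 748 tests lower and 1 higher. Of all tests, 2.55% were lower and 2.53% higher. The 5 lower ones were Atp5d in DG granule neurons (−1.50, adjusted p = 0.0130), Uqcrfs1 in astrocytes (−1.33, adjusted p = 0.0232), Sdhc and Ndufaf2 in subicular/cortical neurons (−0.87 and −0.70) and Ndufaf5 in CA3 (−0.98). Sdhc, Ndufaf2 and Ndufaf5 were named here after their values were seen. Atp5d, the δ subunit of the ATP synthase, stood at 11.7, 9.81, 3.45 and 9.29 CPM under ketamine, and at 11.7 to 59.4 CPM in 9 wake mice (median 28.4), with mouse 29 at 13.6, so that the 2 ranges met without overlapping. Uqcrfs1 stood at 14.9, 15.4, 5.16 and 17.7 CPM against 13.5 (mouse 29) to 90.2 in wake. Ndufaf7 in DG granule neurons was higher by 0.66 (adjusted p = 0.0162), with 111, 106, 114 and 71.2 CPM under ketamine and 45.4 to 80.4 in wake (median 66.0), and mouse 29 at 66.2. Over the classes the median fold change of nuclear members ran from −0.28 in DG granule neurons to 0.19 in microglia. Ribosomal protein genes, in contrast, had 49 of 687 tests higher and 0 lower, and 0 and 0 with runs of mouse numbers as a block. Of the other lists under ketamine, assembly factors had 1 of 195 tests higher and 5 lower, 4 of them Sdhaf3, the tricarboxylic acid cycle 2 higher and 4 lower of 135, glycolysis 0 higher and 5 lower of 154 (Aldoc in 2 classes, Gpi1, Ldha and Pgam1), regulators 2 higher and 3 lower of 102, and carriers 0 of 78. These list counts stand against the same shares of all tests.

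No member passed the test between genotypes. Between APP/PS1 and WT mice, averaged over states, 0 of 853 member tests and 0% of 98167 tests of all genes were called by edgeR. Prnp was thus not called either, so these 0 calls cannot show that members are alike between genotypes. At an unadjusted p under 0.05 there were 1.76% of member tests and 4.26% of all. DESeq2 also called 0 members, and so did the fit without the libraries labelled mouse 11, 14 and 17, which called 0.00815% of all tests. Astrocyte shares of nuclear members were 0.273 to 0.832% in 9 APP/PS1 mice (median 0.391%) and 0.2504 to 1.08% in 11 WT mice (median 0.375%). The lowest adjusted p, 0.836, was shared by several members in subicular/cortical neurons, among them Atp5c1 (0.49 ± 0.15, log2, SE). On the lists of related pathways 0 tests were called for genotype or for the interaction below.

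The response to isoflurane was compared between genotypes by an interaction term. It called 0 of 853 member tests and 0% of all tests, and 11.0% of member tests had an unadjusted p under 0.05 against 3.59% of all. The median interaction of the mitochondrial genes was between −1.46 (astrocytes) and −2.09 (microglia) on the log2 scale and that of the nuclear members between −0.26 (microglia) and −0.40 (subicular/cortical neurons). In CA3 the mitochondrial share was 0.983, 0.0525 and 0.174% in WT isoflurane mice 3, 16 and 18, and 0.396, 0.0455, 0.0413 and 0.0172% in APP/PS1 isoflurane mice 4, 11, 15 and 20. Wake mice stood at 0.0125 to 0.363% in WT (n = 6) and at 0.340, 0.0742 and 0.0820% in APP/PS1. The labels of mice 11, 14 and 17 are among those that Prnp went against. The interaction without these 3 libraries also called 0 members and 0.00102% of all tests, and the fit without mouse 20 alone called 0 members and 0 tests over all genes. The ranges of the 4 groups as labelled overlapped, and within each group the mouse numbered 1 to 4 had the highest share. Without mice 1 to 4 the median interaction of the mitochondrial genes was between −1.90 (oligodendrocytes) and −4.12 (microglia) and that of the nuclear members between −0.19 (OPCs) and −0.01 (microglia). The microglia values rest on very few APP/PS1 wake mice. Of the 7 wake mice with microglia sums 5 were WT, and without mice 1 to 4 only 5 wake mice of both genotypes remained. Without the filter on low counts, the same term called 64 of 952 member tests, all 64 of them mitochondrial and lower, against 0.143% of all tests.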

How the data were processed

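For every nucleus the deposited files give a UMI count for each gene, which the authors made with Cell Ranger 5.0.0 on mm10, counting intronic reads as well. The study's methods also name CellBender for the removal of free RNA, and the file headers name only Cell Ranger, so whether the deposited counts are from before or after that step is not given in the sources used here. Cell Ranger counts reads that map to 1 gene, so reads shared between annotated genes can be lost. Many members have processed pseudogene copies, and how many reads this took was not tested. The unit used throughout is this deposited count. No nuclei were removed for depth or genes (each held at least 200 genes). No doublet caller was run, but nuclei with markers of 2 classes (36532 reached 2 markers of more than 1 class) fell out of the gate unless 1 class dominated.

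Counts were summed per mouse and class (6 gate and 4 check markers per class, at least 50 nuclei) and tested with edgeR 4.0.16 (glmQLFit and glmQLFTest, TMM scaling, filterByExpr, Benjamini-Hochberg over all genes of the class, adjusted p under 0.05) in R 4.3.3. State and genotype were fitted on 6 groups plus a term for mice 1 to 4, and classes on class plus mouse, without the gate markers. CPM are counts relative to the UMIs of the tested genes in the class sum of a mouse, after TMM scaling. Values pooled over mice or classes and summed shares are unscaled. Alternatives were DESeq2 1.42.0, no gene filter, no term for mice 1 to 4 or their removal, blocks for runs of mouse numbers, a stricter gate (3 markers, 3 times any other class), removal of the 5% of nuclei with most UMIs, removal of the 3 libraries whose Prnp went against their label, and leaving out each mouse. Class fits without 1 mouse reused the dispersion trend of the full fit. Steps were tested on simulated counts.

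Genes are named by rule: isoform pairs, representatives of each complex, and in each comparison and direction the 5 members with the smallest adjusted p among those called. Others are said to be named after their values were seen. A representative of complex I is not reported here. Members, markers and gene lists were chosen with earlier results of these data known. The study's methods describe tissue batches with all groups, and the labels name none. The mouse numbers were read as runs because of their gaps. The block further cut 10 to 20 into 10 to 13, 14 to 17 and 18 to 20, a split that no label gives. No label says that mice share a litter or day. Gene positions are from GENCODE vM21 (mm10). Protein sequences were not used here. All sample columns of the files were used.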

Additional observations from a re-analysis of the deposited data

Results flagged for a closer look

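In groups of 4 to 6 mice, the highest or lowest value was set against the rest by Dixon's test, which chance alone passes in about 1 of 20 groups. Of 50 groups tested 33 were marked, nearly all because 1 of mice 1 to 4 stood above the rest of its group. Among WT wake mice, mouse 1 had the highest mitochondrial share, with 3.04% in astrocytes, 1.75% in microglia, 1.60% in oligodendrocytes, 0.949% in OPCs, 0.749% in DG granule neurons, 0.681% in GABAergic neurons, 0.681% in subicular/cortical neurons, 0.501% in CA1 and 0.363% in CA3. Its nuclear members also stood out, with 0.958% in microglia, 0.858% in oligodendrocytes, 0.822% in astrocytes, 0.625% in GABAergic neurons, 0.577% in OPCs, 0.487% in DG granule neurons and 0.440% in CA1. Among APP/PS1 isoflurane mice, mouse 4 had a mitochondrial share of 2.12% in astrocytes, 1.85% in oligodendrocytes, 0.935% in OPCs, 0.792% in subicular/cortical neurons, 0.728% in DG granule neurons, 0.707% in GABAergic neurons, 0.468% in CA1 and 0.396% in CA3.

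Among single genes, mouse 1 and mouse 4 stood apart in DG granule neurons for mt-Cytb (905 and 730 CPM), mt-Nd1 (486 and 430 CPM) and mt-Nd2 (342 and 306 CPM), and in astrocytes for mt-Cytb (3326 and 2212 CPM). The remaining mark was a low value, Ndufaf7 in DG granule neurons of WT wake mouse 12, at 45.4 CPM.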

How the results depend on the processing

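No paired analysis was possible because no 2 groups share a replicate number and no label names a batch. The study's methods describe tissue handled 4 samples at a time across groups, and runs of mouse numbers were fitted as a block in its place. Summed shares of the members by class moved by less than 1 SD, a spread widened by mice 1 to 4, with another denominator or the stricter gate. In nuclei of 1000 to 2000 UMIs the mitochondrial share of microglia averaged 1.58% (n = 3, 0.0834 to 2.45%) against 0.638% over 17 mice. These means rest on different mice. Over nuclei of all depths, microglia of mice 1 to 4 averaged 2.13% and those of the other 13 mice 0.179%. Between classes, 267 member tests were higher and 307 lower, and leaving out 1 mouse, with the dispersion trend reused, gave 255 to 279 and 299 to 352. In nuclei of 1000 to 2000 UMIs they were 101 and 37, with fewer nuclei and sums. The stricter gate gave 259 and 219 of 864 tests, and removing mice 1 to 4 gave 206 and 233 of 855. For isoflurane (1 higher, 0 lower), DESeq2 gave 2 higher, removing the nuclei of most UMIs 2 higher and 1 lower, runs as a block 4 higher, removing mice 11, 14 and 17 3 higher and 1 lower, and no gene filter 7 lower. No term for mice 1 to 4 and their removal each gave 0 higher, and leaving out 1 mouse gave 0 to 2 higher and 0 to 1 lower. The stricter gate also gave 0 higher. It drops the 74.2% of CA1 nuclei with only 2 gate markers, and CA1 is the class of the 1 call, so this 0 cannot decide whether that call held. For ketamine (2 higher, 26 lower), no gene filter gave 11 and 88, no term for mice 1 to 4 gave 1 and 6, their removal 0 and 10, the stricter gate 1 and 17, removing mice 11, 14 and 17 left 10 lower, removing the nuclei of most UMIs left 1 higher, the added block 0 and 0, and leaving out 1 mouse 0 to 8 and 0 to 45. Without the gene filter 1 member was lower between genotypes (0.165% of all tests called) and 64, all mitochondrial and lower, were called in the interaction (0.143% of all). The stricter gate left 7 classes for the state fits. Where these counts moved, the cause was not tested. With the added block, 8 named ketamine values reversed: mt-Atp6 in DG granule neurons to 0.28, mt-Co1 to 0.67 in astrocytes and 0.17 in GABAergic neurons, mt-Cytb to 0.61 in astrocytes, 0.15 in CA3 and 0.076 in subicular/cortical neurons, and mt-Nd1 and mt-Nd4 in astrocytes to 0.88 and 0.86. Low UMI counts limit the rare isoforms and the classes with few nuclei, and OPCs and microglia were the least deeply covered of the tested classes.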

Other observations

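The fibroblast-like nuclei, too few per mouse for a test and 90.4% of them at the marker minimum of the gate, differed, pooled over mice, from the other classes in the makeup of their mitochondrial RNA, a pattern chosen after its values were seen. There mt-Nd5 made up 3.52% of their mitochondrial UMIs and mt-Nd6 1.15% (65 UMIs), where mt-Nd5 was at 0.863 to 1.23% and mt-Nd6 at 0.0702 to 0.225% in the other 11 classes. The mix of mice differed too: mice 25 to 29 gave 795 of the 1067 fibroblast-like nuclei, 424 of them from 1 mouse, while mice 1 to 4 gave 73.4% of the mitochondrial UMIs of the 9 tested classes. Within mice 25 to 29, mt-Nd5 and mt-Nd6 made up 11.1% and 4.32% in fibroblast-like nuclei against 2.98% and 1.11% in the 9 classes. Within mice 1 to 4 they made up 0.820% and 0.0342% (1 UMI) against 0.873% and 0.0851%, and within mice 10 to 20 1.50% and 0.225% (3 UMIs) against 1.36% and 0.142%, so the wide gap came from mice 25 to 29. Cytosolic ribosomal protein genes took 4.62% of all UMIs in the same nuclei, against 2.50% in endothelial and 0.892% in microglia nuclei.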
